A study of Mus musculus with 6 samples.

Results

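The genes that make miRNAs and carry out their silencing were followed through the Achilles tendon RNA-seq. The list held 43 genes of the 53726 features in the count table, chosen by name for their roles. Earlier results of these data were known when they were chosen. It ran from the nuclear cropping of miRNA precursors over export, dicing and the Argonaute complexes to deadenylation, decapping and decay of target mRNAs, with editing, tailing and precursor-binding factors added. The study asked what loss of Dicer in tendon does to tendon RNA.

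Achilles tendon RNA came from mice at 4 weeks of age, 1 mouse and 1 RNA-seq library per genotype. The Control carried the floxed alleles without Cre (Dicer f/f), ScxHt carried 1 ScxCre knock-in allele with intact Dicer (ScxCre/+ Knock In:Dicer +/+), and Dicer cKO carried both (ScxCre/+ Knock In:Dicer f/f). Cre is driven by the endogenous promoter of Scx, the tendon transcription factor scleraxis, so it acts in Scx-expressing tendon and ligament cells, and the knock-in inactivates the Scx allele that carries it in ScxHt and Dicer cKO alike. Whole tendon was used, so cells without Scx expression in it, such as blood, vessel and nerve cells, contribute RNA with intact Dicer.

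In the canonical pathway, the nuclear enzyme Drosha with its partner Dgcr8 crops a hairpin out of a primary transcript, exportin carries it to the cytoplasm, and Dicer cuts it to a short duplex. One strand is loaded into an Argonaute protein, which finds target mRNAs by the seed of the miRNA. The Argonaute recruits a GW182 protein, and through it the deadenylases and decapping enzymes that repress and degrade the target.

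The libraries held 14959399 to 16244232 counts, and the 43 genes took up 0.423% of them in the Control, 0.459% in ScxHt and 0.421% in Dicer cKO. Reads were divided by size factors for each pair of libraries, and a gene was analysed when the mean of its normalized reads (baseMean) was above 50. Genes were called lower below a ratio of 0.60 and higher above its reciprocal, a log2 ratio of 0.74, the limits used in the study. A 95% Clopper-Pearson interval is given for the ratios, and it covers counting error only. With 1 library per genotype there was no replicate check and no p-value, so a difference between genotypes and a difference between single mice cannot be told apart.

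Most of the machinery was readily detected. Of the 43 genes, 40 were analysed in Dicer cKO/Control and 41 in the other two comparisons. Lin28a, which binds let-7 precursors and is best known from embryonic cells, had 1, 0 and 3 reads in the Control, ScxHt and Dicer cKO libraries, and its paralog Lin28b had 0 reads in all 3 libraries, so both were at or below the floor of 3 reads and no ratio was taken. Gemin4, a protein of the SMN complex that was also found with Argonautes, had 52, 67 and 42 reads and missed the minimum in Dicer cKO/Control. It shares 89.8% of its exonic bases with Glod4 on the same strand and 77.0% with Fam57a on the opposite strand, and its count is therefore uncertain.

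Levels per length spanned a wide range. In deposited RPKM, which divide reads by feature length and library size, the RNA helicase Ddx5 was the highest member at 158 in the Control, 162 in ScxHt and 164 in Dicer cKO. Its relative Ddx17 followed at 52.3, 48.7 and 50.2, and the decapping helicase Ddx6 at 30.3, 35.0 and 30.6. These helicases serve many RNA pathways, and Ran, the GTPase of nuclear transport, does so too. The enzymes named for the pathway lay lower, with Drosha at 9.13, 11.1 and 9.72 RPKM and Dicer1 at 7.05, 7.67 and 6.47. Levels between genes depend on the feature lengths used. For Dicer1 the RPKM imply 16748 bases, while its annotated transcript has 9851. Summed over the 43 genes, RPKM came to 544 in the Control, 596 in ScxHt and 551 in Dicer cKO.

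**Figure D1:**
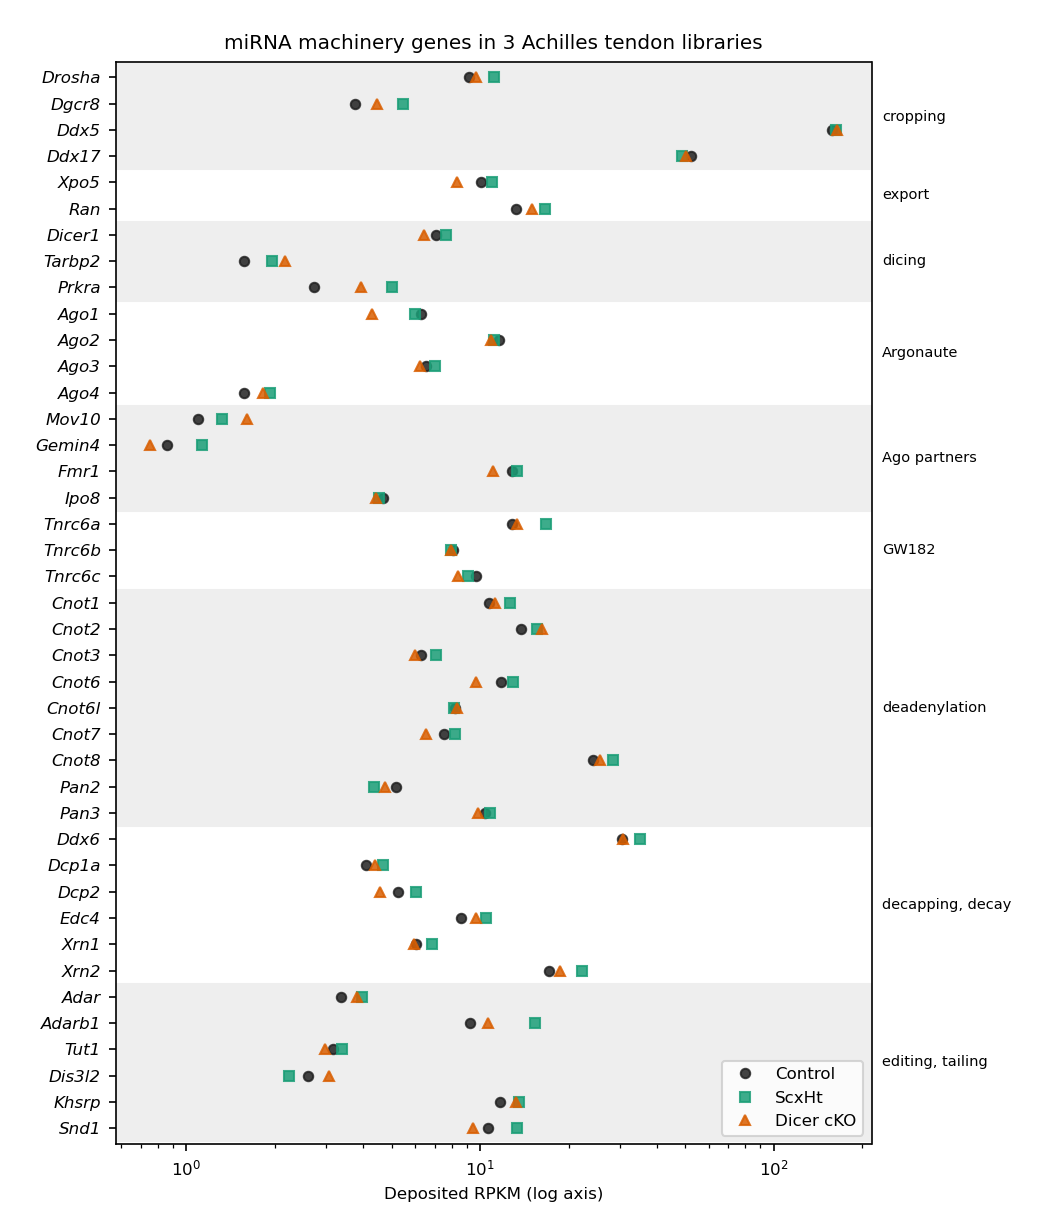
Deposited RPKM (log axis) of the 41 machinery genes with more than 3 reads in a library, grouped by role, with 1 point per library. The 3 libraries lie close together for most genes, from Gemin4 near 1 RPKM up to Ddx5 at 158 to 164, and Ago1 and Adarb1 are among the genes where 1 library stands apart.

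None of the 40 genes analysed was past the limits in Dicer cKO/Control, where 3.87% of all 13404 genes analysed were above the upper limit and 4.19% below 0.60. A ratio below 1 was found for 24 genes, 60% of the members and 54.2% of all genes. It was found for 19 members when reads were scaled by total counts, which moved the median log2 ratio of all genes to 0.03. With the size factors, the median log2 ratio of the machinery was -0.05, beside -0.03 for all genes. The ratios ran from 0.651 for Ago1 to 1.40 for Mov10. With narrower limits, 0.80 and its reciprocal, 3 genes were higher (Mov10, Prkra and Tarbp2; background 16.8%) and 3 lower (Ago1, Cnot6 and Xpo5; background 19.4%), each 7.5% of the members. The counting interval lay wholly below 1 for 16 genes, 40% of the members against 28.5% of all genes, and wholly above 1 for 5 genes, 12.5% against 21.6%. For the other 19 it held 1. The width of an interval depends on the reads of a gene, so these shares also depend on how highly the members are expressed.

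In ScxHt/Control, 1 of 41 genes was past the limits, Prkra at 1.71, with backgrounds of 3.03% above the upper limit and 4.71% below 0.60. Of the members 14 had a ratio below 1, 34.1% against 47.4% of all genes. With total-count scaling 9 did, and the median log2 ratio of all genes moved to 0.12. With the size factors, the median log2 ratio was 0.08 for the machinery and 0.02 for all genes. Adarb1 at 1.55 and Dgcr8 at 1.35 were also above the narrower upper limit (background 17.4%), and Pan2 at 0.783 and Dis3l2, by less than the rounding, were below 0.80 (background 17.2%). Intervals lay wholly above 1 for 11 genes and wholly below for 10, beside 26.4% and 23.8% of all genes.

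In Dicer cKO/ScxHt, where both mice carry the ScxCre allele, no member was past the limits, with backgrounds of 7.68% above and 5.68% below. The median log2 ratio was -0.10 against -0.03 for all genes. A ratio below 1 was found for 28 members, 68.3%, and for 53.8% of all genes. With total-count scaling 33 members were below 1, and the median log2 ratio of all genes moved to -0.10. At the narrower limits, 7 of 41 members were below 0.80, 17.1% against a background of 22.7%, and they were Gemin4, Adarb1, Snd1, Ago1, Cnot6, Dcp2 and Xpo5. Above the narrower upper limit were Dis3l2 and Mov10 (background 20.7%). Intervals were wholly below 1 for 18 genes and wholly above 1 for 4, beside 30.6% and 24.9% of all genes.

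The comparisons share libraries, so each is given on its own. Normalized over the 3 libraries together, the ScxHt value was the highest for 21 of the 41 genes, the Control value for 13 and the Dicer cKO value for 7. The lowest value was in the Control for 17 genes, in Dicer cKO for 16 and in ScxHt for 8. The order of the libraries was not counted over all genes. These counts therefore cannot show whether the machinery differs from other genes.

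**Figure D2:**
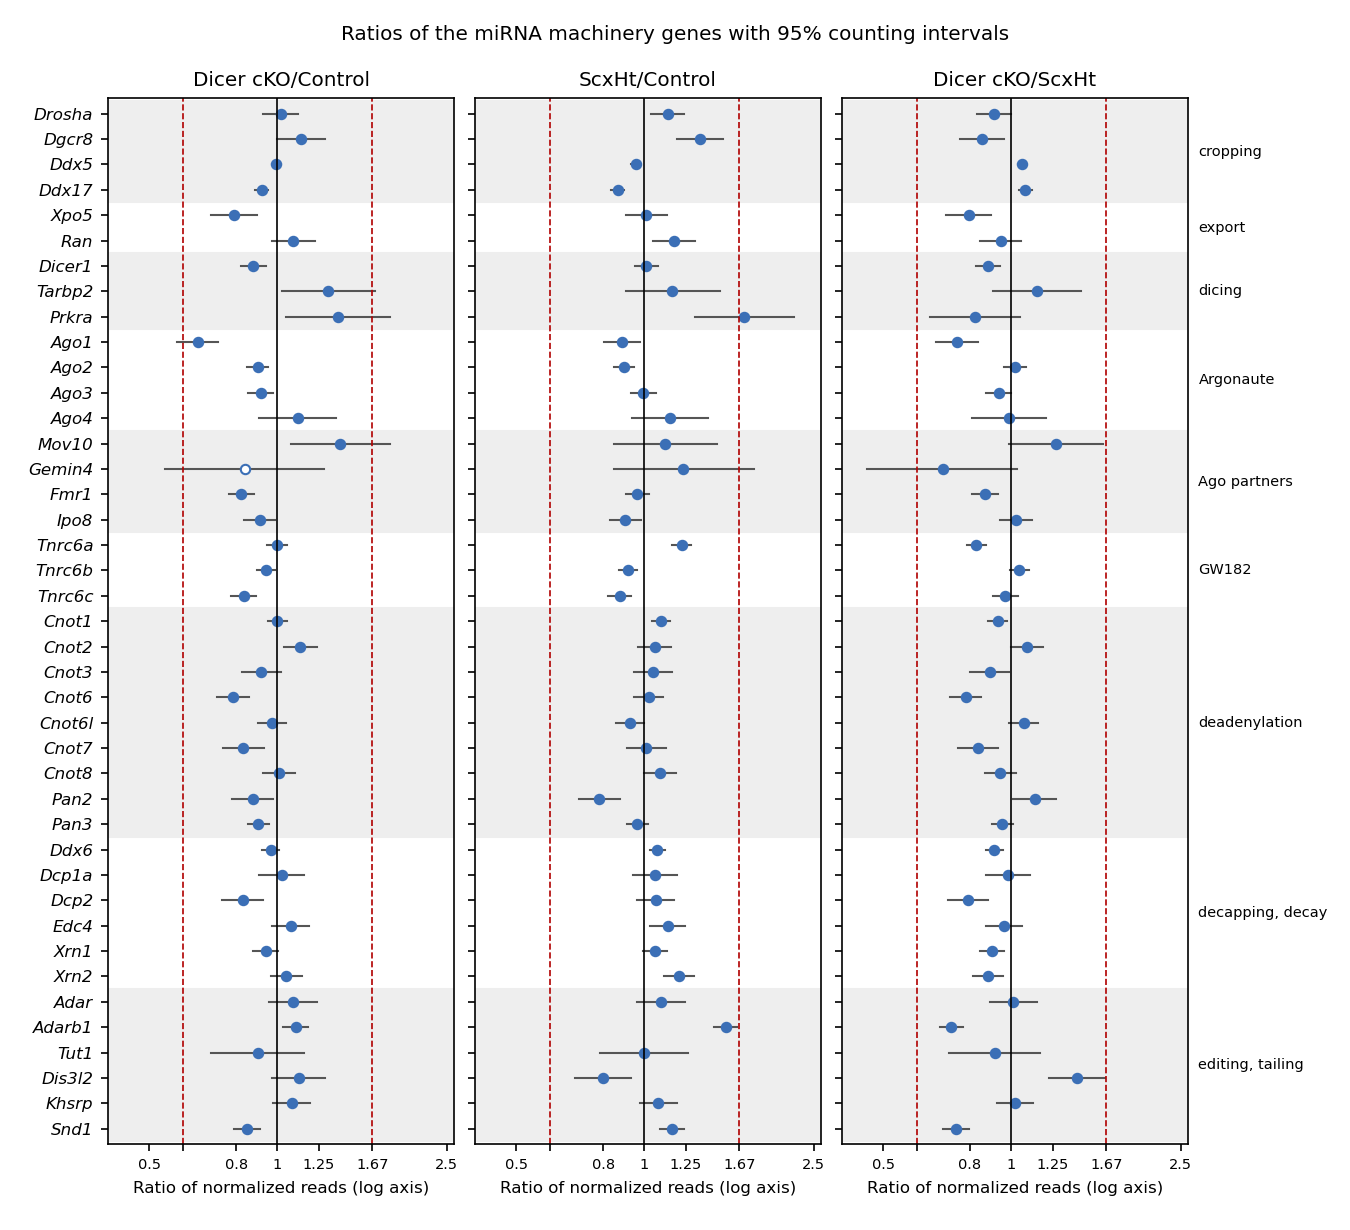
Ratio of normalized reads (log axis) for each machinery gene in the 3 comparisons, with 95% counting intervals as horizontal lines, dashed lines at 0.60 and its reciprocal, and an open point for a gene under the minimum baseMean. Prkra at 1.71 in ScxHt/Control is the one point past a dashed line, and Ago1 at 0.651 is the lowest in Dicer cKO/Control.

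**Figure D3:**
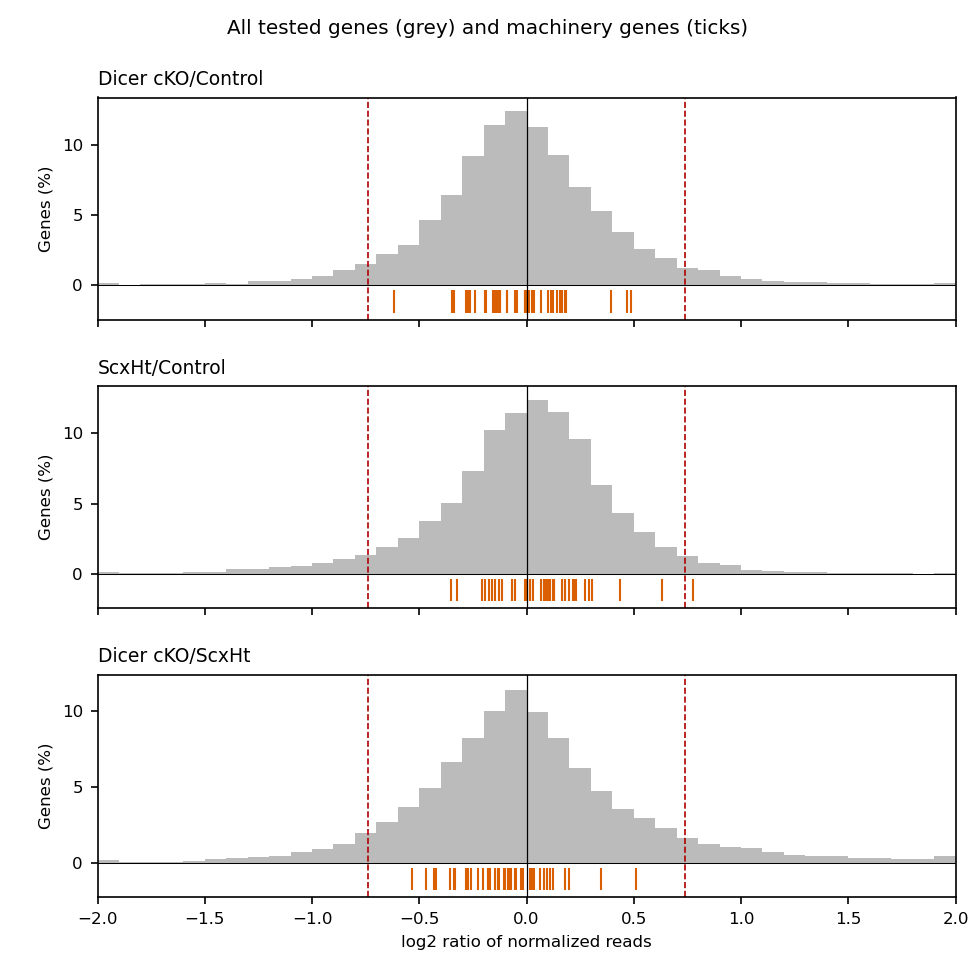
Distribution of log2 ratios of all genes analysed (grey bars, percent of genes, with values beyond -2 or 2 placed in the end bins) and of the machinery genes (ticks under each axis), with dashed lines at 0.60 and its reciprocal. Except for Prkra in ScxHt/Control, the ticks lie between the dashed lines, with medians of -0.05, 0.08 and -0.10 from top to bottom.

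Dicer1, the floxed gene, lies at chr12:104687742-104751952 on the minus strand of GRCm38. It had 1919 reads in the Control, 2025 in ScxHt and 1621 in Dicer cKO, so the Dicer cKO library was the lowest. The ratio was 0.877 (0.821 to 0.938) against the Control and 0.882 (0.826 to 0.942) against ScxHt. The interval of ScxHt/Control held 1 (0.949 to 1.08). Of all genes analysed, 31.5% had a lower ratio than Dicer1 in Dicer cKO/Control and 34.3% in Dicer cKO/ScxHt. A count per gene is a coarse check of a deletion confined to part of a gene. The annotated transcript has 27 exons over 9851 bases, of which 24 are wholly coding, and the longest of these takes up 8.84% of the transcript and the median one 1.64%. Reads by exon were not analysed here, so the count adds up transcript from deleted and intact alleles and checks the genotype labels only weakly. By real-time PCR in more mice, the study found Dicer significantly lower in Dicer cKO Achilles tendon than in the Control. It did not regard the drop as dramatic, and proposed inefficient and mosaic recombination as possible reasons, which was not tested here.

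Marker mRNAs of several cell types also differed between the libraries. The summed RPKM of 8 tendon fibroblast markers was 19227 in the Control, 17297 in ScxHt and 11021 in Dicer cKO. All 8 were lower in Dicer cKO than in the Control, with a median ratio of 0.542. Scx is among the 8, and the knock-in inactivates 1 of its alleles. The study had reported most tendon fibroblast genes as lower in Dicer cKO, and the markers were chosen with earlier results known. Summed RPKM of 8 skeletal muscle markers was 5066, 3723 and 9286, all 8 with a ratio above 1 (median 1.98), and that of 8 myelinating Schwann cell markers was 92.3, 123 and 282, with 7 of 7 analysed above 1. Erythroid markers summed to 244, 246 and 591 RPKM, macrophage markers to 93.4, 175 and 71.7, endothelial markers to 121, 88 and 138, adipocyte markers to 292, 375 and 349, and markers of dividing cells to 16.5, 33.9 and 33.8. For some of these lists, the sum and the typical marker differed in ScxHt/Control. Of the tendon fibroblast markers, 5 of 8 were above 1 (median 1.11), although their sum was lower. Of the myelinating Schwann cell markers, 2 of 5 analysed were above 1 (median 0.899), although their sum was higher. Of the erythroid markers, 1 of 5 analysed was above 1 (median 0.975), although their sum was slightly higher. No marker was at 0 in any library. The part of these shifts in the ratios of the machinery was not tested, and in whole tendon fewer cells of a type and less RNA per cell cannot be told apart.

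The nuclear cropping genes lay near 1 in Dicer cKO/Control. Drosha, the cropping nuclease, had 881, 1043 and 863 reads in the Control, ScxHt and Dicer cKO, and it was at 1.02 (0.925 to 1.12) in Dicer cKO/Control. Its RNA-binding partner Dgcr8 had 445, 628 and 487 reads, lowest in the Control, and was the highest of the group at 1.14 (0.997 to 1.30). Against the Control, Dgcr8 was 1.35 (1.20 to 1.53) in ScxHt and Drosha 1.13 (1.04 to 1.24). Dgcr8 shares 10.7% of its exonic bases with Trmt2a on the opposite strand, which had 143, 179 and 140 reads. Ddx17, a helicase cofactor of cropping, was the lowest of the group at 0.918 (0.886 to 0.951), with 6496, 5866 and 5742 reads, and Ddx5 was at 0.994 (0.971 to 1.02). Ddx5 had 14819, 14760 and 14180 reads, the most of the list.

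Dgcr8 mRNA is itself a substrate of the cropping enzyme, since hairpins in its own exons can be cut. The gene lies at chr16:18253948-18289246 on the minus strand, and the annotation places the hairpins of miR-1306 and miR-3618 in its exons. Small RNA-seq of the same tendons counts reads of these hairpins. Such reads depend on dicing and loading as well as on cropping, and the cropping of Dgcr8 mRNA was not tested. The RefSeq mature sequences are printed with the seed (bases 2 to 8) in capitals.
miR-1306-5p: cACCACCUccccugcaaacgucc
miR-1306-3p: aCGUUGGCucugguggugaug
miR-3618-5p: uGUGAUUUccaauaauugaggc
miR-3618-3p: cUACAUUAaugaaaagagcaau
The miR-1306 hairpin (chr16:18284239-18284317) had 187 small RNA reads in the Control, 212 in ScxHt and 201 in Dicer cKO. With small RNA size factors its ratio was 1.23 (1.0 to 1.51) in Dicer cKO/Control, 1.28 (1.04 to 1.56) in ScxHt/Control and 0.948 (0.778 to 1.16) in Dicer cKO/ScxHt. The host gene had 1.14, 1.35 and 0.855 in these comparisons. The miR-3618 hairpin had 0 small RNA reads in all 3 libraries, so no ratio was taken. The deposited counts are per hairpin, so the arms of miR-1306 cannot be told apart.

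In all, 10 annotated hairpins lay inside 8 of the machinery genes on the same strand, and 5 of them were above the floor of 3 small RNA reads in a library. Mir3064 in an exon of Ddx5 had 18, 15 and 11 small RNA reads in the Control, ScxHt and Dicer cKO libraries and 457, 556 and 554 RNA-seq reads. These RNA-seq reads are not normalized, and at this place they cannot be told apart from reads of the host mRNA. Its small RNA ratio was 0.70 (0.299 to 1.57) in Dicer cKO/Control, an interval that holds 1. Mir5113 in Tnrc6b had 2, 7 and 14 small RNA reads, a Dicer cKO/Control ratio of 8.02 (1.84 to 72.7). Mir3572 in Cnot3 had 5, 12 and 11 reads, and Mir7073 in an intron of Cnot1 had 2, 3 and 5. The Mir5113 interval lay above 1 but rests on 2 reads in the Control, and 4 hairpins had no small RNA read.

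Of the export genes, Xpo5, the exportin of miRNA precursors, was lowest in Dicer cKO, with 607 reads in the Control, 641 in ScxHt and 462 in Dicer cKO. The ratio was 0.790 (0.699 to 0.893) against the Control and 0.794 (0.703 to 0.897) against ScxHt, while the ScxHt/Control interval was 0.904 to 1.13. Ran, which powers exportin transport, had 568, 696 and 596 reads and a Dicer cKO/Control ratio of 1.09 (0.970 to 1.22).

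The RNA-binding partners of Dicer were lowest in the Control library. Tarbp2 encodes TRBP, which helps Dicer to cut and hand over the duplex, and it had 116 reads in the Control, 141 in ScxHt and 147 in Dicer cKO, for a Dicer cKO/Control ratio of 1.32 (1.02 to 1.69). Prkra encodes PACT, the other such partner, and also activates the kinase PKR. It had 90, 161 and 120 reads, and its ratio was 1.38 (1.04 to 1.84) in Dicer cKO/Control, 1.71 (1.32 to 2.24) in ScxHt/Control and 0.821 (0.643 to 1.05) in Dicer cKO/ScxHt. Both had under 200 reads in each library, which left wide intervals, and the ScxHt/Control interval of Prkra reached below the upper limit. Together with Dicer1, RPKM of the dicing group summed to 11.3 in the Control, 14.7 in ScxHt and 12.6 in Dicer cKO.

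Among the Argonautes, Ago1 gave the lowest Dicer cKO/Control ratio of the whole list. It had 833 reads in the Control, 771 in ScxHt and 522 in Dicer cKO. The ratio was 0.651 (0.582 to 0.727) against the Control and 0.746 (0.666 to 0.835) against ScxHt, and 0.887 (0.803 to 0.979) in ScxHt/Control. Of all genes analysed, 6.45% had a lower Dicer cKO/Control ratio, so Ago1 was low but not at the edge of the distribution. Ago2, the Argonaute that can slice its target, had 2647, 2475 and 2292 reads, with 0.899 (0.85 to 0.951) in Dicer cKO/Control and 0.896 (0.847 to 0.946) in ScxHt/Control. Ago3 was at 0.913 (0.852 to 0.978) in Dicer cKO/Control with 1766, 1834 and 1553 reads. Ago4 was the highest of the group at 1.11 (0.903 to 1.38) with 177, 212 and 190 reads.

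Ago3, Ago1 and Ago4 lie in that order on the minus strand of chromosome 4. Ago3 spans chr4:126331704-126429556, Ago1 chr4:126435012-126468583 and Ago4 chr4:126489541-126533472, so that 5455 bases separate Ago3 from Ago1 and 20957 bases separate Ago1 from Ago4. In Dicer cKO/Control the middle gene of the cluster had a ratio of 0.651 and its neighbours 0.913 and 1.11, with intervals that do not overlap that of Ago1.

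Within the family, the share of Ago1 in the summed Argonaute RPKM was 24.2% in the Control, 23.0% in ScxHt and 18.4% in Dicer cKO. Ago2 made up the largest share in each library, at 44.6%, 42.8% and 46.8%. Ago3 took 25.2%, 26.8% and 26.9%, and Ago4 6.02%, 7.40% and 7.84%. The summed Argonaute RPKM was 26.1, 26.2 and 23.3, so Ago2 was the main Argonaute mRNA per length and Ago1 the one whose share was lowest in Dicer cKO.

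**Figure D4:**
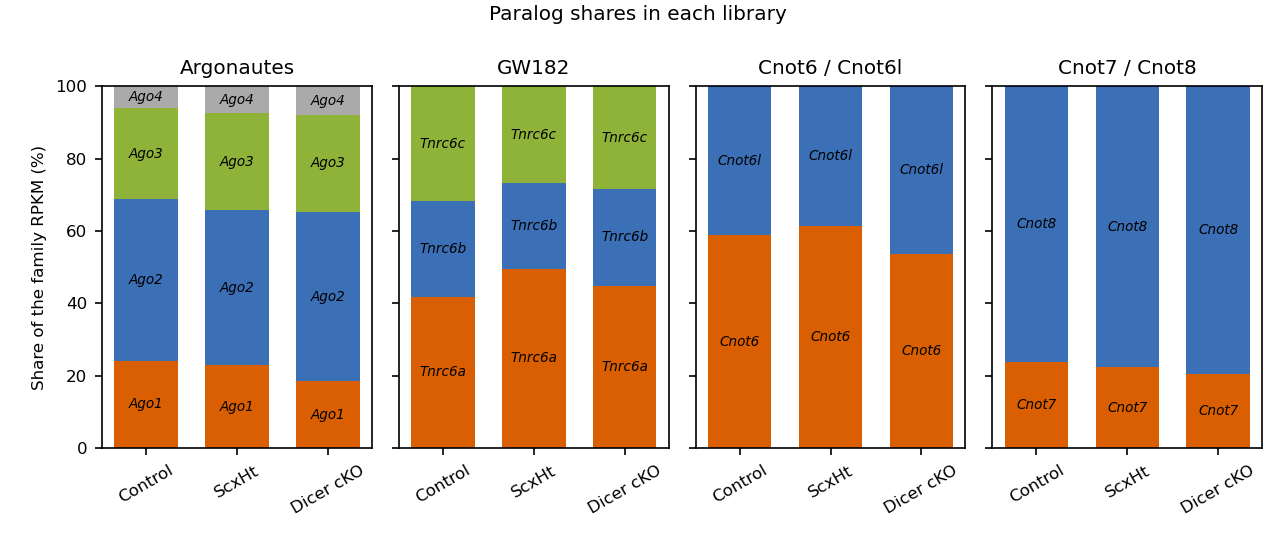
Share of each paralog (percent of the family's summed RPKM, stacked from 0 to 100) in the Control, ScxHt and Dicer cKO libraries, for the Argonautes, the GW182 genes and the 2 pairs of CCR4-NOT deadenylases. Ago1 goes from 24.2% in the Control to 18.4% in Dicer cKO, and Tnrc6a has its largest share, 49.6%, in ScxHt.

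Partners of the Argonautes lay on both sides of 1 in Dicer cKO/Control. Mov10, a helicase found with Argonautes that also restricts retroelements, was the highest of the list at 1.40 (1.07 to 1.83). Its reads were few, 100 in the Control, 117 in ScxHt and 135 in Dicer cKO, and its Dicer cKO/ScxHt ratio was 1.27 (0.985 to 1.64). Fmr1, whose protein FMRP represses translation of bound mRNAs, was the lowest of the group at 0.823 (0.768 to 0.881), with 1878, 1889 and 1488 reads. Ipo8, an importin that also takes part in Argonaute targeting, had 1196, 1127 and 1048 reads and a ratio of 0.910 (0.837 to 0.989).

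The GW182 genes, which link Argonautes to the deadenylases, stayed between 0.833 and 0.996 in Dicer cKO/Control. Tnrc6a had 2641 reads in the Control, 3372 in ScxHt and 2533 in Dicer cKO, so ScxHt was the highest, with ratios of 0.996 (0.943 to 1.05) in Dicer cKO/Control, 1.22 (1.16 to 1.29) in ScxHt/Control and 0.828 (0.786 to 0.872) in Dicer cKO/ScxHt. Tnrc6c was the lowest of the group at 0.833 (0.780 to 0.890) in Dicer cKO/Control and had 2015, 1840 and 1616 reads. Tnrc6b was at 0.940 (0.893 to 0.989) with 3121, 2980 and 2825 reads. Tnrc6a was the most abundant of the family per length, with 41.9%, 49.6% and 44.9% of its RPKM. By raw reads, Tnrc6b had the largest share in the Control (40.1%) and in Dicer cKO (40.5%), and Tnrc6a in ScxHt (41.2%).

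The deadenylases shorten the poly(A) tail, with PAN2-PAN3 commonly acting first and CCR4-NOT after it. Of 9 genes, 7 lay below 1 in Dicer cKO/Control, Cnot1 by less than the rounding, beside 54.2% of all genes, and none passed the limits. With total-count scaling, Cnot1 at a log2 ratio of 0.06 and Cnot6l at 0.02 lay above 1, which left 5 of 9 below. The median log2 ratio of all genes was 0.03 under that scaling. Cnot6, a CCR4-type catalytic subunit, was the lowest at 0.786 (0.722 to 0.855), with 1267 reads in the Control, 1353 in ScxHt and 959 in Dicer cKO, and it was 0.781 (0.718 to 0.849) against ScxHt. Its paralog Cnot6l had 1379, 1329 and 1289 reads and a ratio of 0.971 (0.899 to 1.05). The share of Cnot6 in the RPKM of the pair was 58.9% in the Control, 61.4% in ScxHt and 53.7% in Dicer cKO. Of the CAF1-type catalytic subunits, Cnot7 had 713, 753 and 571 reads, and its Dicer cKO/Control ratio was 0.832 (0.744 to 0.930). The interval of Cnot8 held 1 (0.924 to 1.1), with 1039, 1180 and 1009 reads and 76.3% to 79.6% of the RPKM of that pair. In each pair of catalytic paralogs, 1 gene had an interval below 1 and the other an interval that held 1. The intervals of Cnot7 and Cnot8 overlap, while those of Cnot6 and Cnot6l do not. The difference within a pair was not tested.

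Of the non-catalytic CCR4-NOT subunits, Cnot1, the scaffold, had 3001, 3428 and 2890 reads and a Dicer cKO/Control ratio of 1.0 (0.95 to 1.05). Cnot2, a subunit of the NOT module, was the highest of the group at 1.13 (1.03 to 1.24) with 912, 1006 and 994 reads, and its module partner Cnot3 was at 0.917 (0.823 to 1.02). Pan2, the catalytic subunit of PAN2-PAN3, had 713, 583 and 600 reads and was lowest in ScxHt, with 0.783 (0.701 to 0.875) in ScxHt/Control and 0.874 (0.783 to 0.975) in Dicer cKO/Control. Pan3, its adaptor, was at 0.902 (0.852 to 0.956) in Dicer cKO/Control.

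The decapping and decay genes remove the cap and digest the mRNA body. Dcp2, the decapping enzyme, had 745 reads in the Control, 828 in ScxHt and 594 in Dicer cKO, and was the lowest of the group at 0.828 (0.742 to 0.923) in Dicer cKO/Control and at 0.791 (0.710 to 0.88) in Dicer cKO/ScxHt. The highest was Edc4, a scaffold of the decapping complex, at 1.07 (0.971 to 1.19) with 770, 911 and 796 reads. Dcp1a, the activator of Dcp2, was at 1.02 (0.907 to 1.15). Ddx6 was at 0.964, the cytoplasmic exonuclease Xrn1 at 0.940 and its nuclear relative Xrn2 at 1.05 (0.963 to 1.14). All 6 genes had a ratio above 1 in ScxHt/Control, from 1.06 for Xrn1 to 1.21 (1.11 to 1.31) for Xrn2, and below 1 in Dicer cKO/ScxHt. Of all genes, 47.4% lay below 1 in ScxHt/Control and 53.8% in Dicer cKO/ScxHt. The ScxHt/Control intervals of 3 of the 6 held 1. These comparisons share the ScxHt library.

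Genes that edit, tail or bind precursors were mixed. Adarb1 encodes ADAR2, an adenosine deaminase that edits double-stranded RNA, and had 1687 reads in the Control, 2732 in ScxHt and 1794 in Dicer cKO, so ScxHt stood apart. The ratio was 1.55 (1.46 to 1.65) in ScxHt/Control, 0.724 (0.681 to 0.768) in Dicer cKO/ScxHt and 1.1 (1.03 to 1.18) in Dicer cKO/Control. Adar, the other deaminase gene of the list, had 443, 506 and 464 reads and was at 1.09 in both ScxHt/Control and Dicer cKO/Control, with intervals that held 1. It shares 16.8% of its exonic bases with Chrnb2 on the opposite strand.

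Dis3l2, the exonuclease that digests uridylated precursors such as those of let-7, was lowest in ScxHt, with 376, 314 and 406 reads in the Control, ScxHt and Dicer cKO. It was at 1.12 (0.972 to 1.29) in Dicer cKO/Control, the highest of its group, 0.80 (0.686 to 0.932) in ScxHt/Control and 1.42 (1.23 to 1.66) in Dicer cKO/ScxHt. Snd1, a nuclease found in the silencing complex, had 1691, 2051 and 1380 reads and was the lowest of its group at 0.847 (0.789 to 0.910) in Dicer cKO/Control and 0.742 (0.692 to 0.794) in Dicer cKO/ScxHt. Khsrp, which binds the terminal loop of some precursors, was at 1.08 (0.977 to 1.20) in Dicer cKO/Control. The terminal uridylyltransferase Tut1 was at 0.898 (0.699 to 1.15) with 141, 147 and 122 reads.

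Some silencing genes carry matches to miRNA seeds themselves, and Lin28a and Lin28b are textbook targets of let-7. The mature let-7a-5p sequence is printed with its seed in capitals to show what was searched.
let-7a-5p: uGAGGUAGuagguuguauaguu
For each gene, its longest 3' UTR in GENCODE vM21 on GRCm38 was searched on the transcript strand for CTACCTCA, the reverse complement of the seed followed by an A. Of the 40 analysed members with a 3' UTR, 3 held it, 7.5% beside 3.83% of the 10956 genes analysed that had a 3' UTR. Their median 3' UTR was 1928 bases long and that of all genes 1312, and a longer UTR holds more letters to match. The matches in Ago2, Ago3 and Khsrp, and those in Lin28a and Lin28b, are shown in capitals with the bases around them.
Ago2: acaatgtggatCTACCTCAgttaaacagtt
Ago3: cctgccctcacCTACCTCAccaagtcccct
Khsrp: caccttccaacCTACCTCAcaggggtgttg
Lin28a, first match: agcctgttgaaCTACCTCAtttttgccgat
Lin28a, second match: tcgccacaaacCTACCTCActgtgttgaaa
Lin28b: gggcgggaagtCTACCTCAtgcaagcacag
The capitals lie at chr15:73097982-73097989 in Ago2, chr4:126335040-126335047 in Ago3 and chr17:57022184-57022191 in Khsrp, all on the minus strand. Those of Lin28a lie at chr4:134005189-134005196 and chr4:134004551-134004558, and that of Lin28b at chr10:45381022-45381029, also on the minus strand. The Dicer cKO/Control ratios of the 3 analysed genes with the match were 0.899 for Ago2, 0.913 for Ago3 and 1.08 for Khsrp, so they lay on both sides of 1. Shorter matches were TACCTCA in 7 more members (Ago1, Ago4, Tnrc6a, Tnrc6b, Cnot2, Cnot6l and Xrn1) and CTACCTC in Tarbp2, which were the best match in 6.91% and 7.08% of all genes with a 3' UTR. In the window searched, Dicer1 held none of these letters. A match is a description of the sequence, and whether let-7 acts on these mRNAs in tendon was not tested.

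Another 52 genes of the pathway, among them cap-binding and chaperone genes, other CCR4-NOT subunits, deadenylation adaptors, decapping activators and tailing enzymes, were examined as a wider list. In Dicer cKO/Control, 48 were analysed, 0 were above the upper limit and 1 was below 0.60, with a median log2 ratio of -0.01 (all genes 3.87%, 4.19% and -0.03). In ScxHt/Control, 49 were analysed, 1 was above and 1 below, with a median of 0.07 (all genes 3.03%, 4.71% and 0.02). In Dicer cKO/ScxHt, 49 were analysed, 0 were above and 2 below, with a median of -0.01 (all genes 7.68%, 5.68% and -0.03).

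The genes past the limits were few. Btg2, an antiproliferative gene whose protein recruits the CAF1 deadenylases and which is also an immediate early gene, had 1077 reads in the Control, 366 in ScxHt and 416 in Dicer cKO. Its ratio was 0.401 (0.357 to 0.450) in Dicer cKO/Control and 0.326 (0.288 to 0.367) in ScxHt/Control, so the Control library was the one that stood apart. Fkbp5, a co-chaperone of HSP90 that is also induced by glucocorticoids, had 751, 1640 and 923 reads, with 2.09 (1.92 to 2.28) in ScxHt/Control and 1.28 (1.16 to 1.41) in Dicer cKO/Control. Lsm5, a subunit of the LSM ring that activates decapping, was at 0.397 (0.255 to 0.605) in Dicer cKO/ScxHt with 86 reads in ScxHt and 31 in Dicer cKO. Zc3h12a, an endonuclease that also cuts miRNA precursors, was at 0.560 (0.405 to 0.769) in the same comparison with 120 and 61 reads. For Lsm5 and Zc3h12a, ScxHt was the highest of the 3 libraries.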

How the data were processed

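RNA-seq and small RNA-seq of Achilles tendon RNA were each deposited for 1 mouse per genotype. The submitters' notes name TopHat, Bowtie2, HTSeq, DESeq2 and GRCm38. Versions, the annotation release and the strand setting are not given in the sources used here, so reads of overlapping or antisense genes cannot be told apart. The authors deposited raw read counts per feature, used for all ratios, and RPKM, used for levels between genes; the small RNA RPKM were not used. Of 54189 lines in the RNA-seq table, 463 exact repeats were removed.

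Size factors came from DESeq2 1.42.0 in R 4.3.3, estimated over the whole table for each pair of libraries. Python 3.11.15 gave ratios and intervals, without pseudocount or shrinkage (pandas 2.3.3, numpy 2.4.6, scipy 1.17.1), and matplotlib 3.10.9 the figures. The procedure was tested on simulated counts with counting error only, which hold no difference between mice. Small RNA hairpins were matched to host genes by GENCODE vM21. The members, the wider pathway list and the markers were chosen with earlier results of these data known. All members are named; in full are Dicer1, genes past 0.60 or its reciprocal, and the highest and lowest of each role in Dicer cKO/Control, and other values and genes were added after they were seen. Of the 52 wider pathway genes, those past the limits are named, and 4 were found by older symbols.

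Other settings tried were TMM scaling in edgeR 4.0.16, total counts with and without features above 1% of a library, size factors over 3 libraries, a baseMean minimum of 10, 200 or none (above the floor of 3 reads), limits of 2 and 0.5 or of 0.80 and its reciprocal, a pseudocount of 1, the whole interval past the limit, raw reads for paralog shares and, chosen after seeing the data, the repeated lines kept.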

Additional observations from a re-analysis of the deposited data

How the results depend on the processing

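No paired analysis was possible because each genotype had 1 library. Counts of machinery genes past the limits were 0, 1 and 0 in Dicer cKO/Control, in ScxHt/Control and in Dicer cKO/ScxHt, and with limits of 0.80 and its reciprocal they were 6, 5 and 9. In ScxHt/Control, where Prkra was the 1 gene, the count was 0 with a minimum baseMean of 200, with limits of 2 and 0.5, and with the whole interval past the limit. The other alternatives left these counts at 0, 1 and 0. Total-count scaling moved the median log2 ratio of the machinery in ScxHt/Control to 0.19 and that of all genes to 0.12, so the machinery lay above all genes under both scalings. It placed 19 of 40 genes below 1 in Dicer cKO/Control in place of 24 and 9 of 41 in ScxHt/Control in place of 14. In Dicer cKO/ScxHt it placed 33 of 41 below 1 in place of 28. The share of all genes below 1 was not counted under that scaling. Total-count scaling moved 20 of 123 single log2 ratios beyond their interval and turned the sign of 15, by at most 0.11. TMM, size factors over 3 libraries and total counts without the largest features moved none beyond it and turned 3, 4 and 6. Under the 5 scalings, the Dicer cKO/Control ratio was 0.877 to 0.917 for Dicer1 and 0.651 to 0.680 for Ago1, and the ScxHt/Control ratio of Dicer1 lay on both sides of 1. Paralog shares from raw reads differed from RPKM shares by up to 17 percentage points, because gene lengths differ. By raw reads, Tnrc6b led its family and Cnot6l its pair in the Control and Dicer cKO libraries, where Tnrc6a and Cnot6 led by RPKM. Low counts limit Prkra, Tarbp2, Mov10, Gemin4 and the hairpins.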
